A study of Mus musculus with 28 samples.

Results

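Rtp1, Rtp2 and Reep1 are genes whose proteins help odorant receptors reach the surface of the olfactory sensory neuron. They were taken as a named set of 3 genes out of 21779 protein-coding genes in the annotation, and each was described by the peaks of 11 lists that fell within its gene body extended by 10 kb or by 100 kb. A peak is a stretch of genome that the authors' peak caller marked as bound in 1 chromatin immunoprecipitation (ChIP-seq) library. The series holds 28 samples of mouse olfactory cells, and 11 ChIP-seq libraries of formaldehyde-fixed, sorted neurons had peak lists. Control neurons carried OMP-IRES-GFP, a green reporter at a gene of mature olfactory neurons, and were used for CTCF (2 libraries), Rad21 (2) and Ldb1 (3). Ldb1 was also mapped in 2 Lhx2 knockout (KO) libraries, whose neurons carried OMP-IRES-Cre with the floxed alleles Lhx2fl/fl and the red Cre reporter Rosa-CAG-tdtom+/fl. Cre under Omp acts in mature neurons, so Lhx2 was present earlier in their lives. The other 2 Ldb1 libraries came from M28-IRES-GFP mice, from neurons sorted for the single receptor Olfr1507. No label states that replicate libraries are separate animals, so the spread between them may be technical.

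Odorant receptors made in other cells are mostly held in the endoplasmic reticulum (ER). RTP1 and RTP2 are receptor-transporting proteins, small membrane proteins that bind odorant receptors and promote their export from the ER, and REEP1 is a receptor expression-enhancing protein of the hairpin family that shapes ER tubules. CTCF binds DNA at many domain boundaries, Rad21 is part of cohesin, the complex that holds chromatin loops, and Ldb1, which binds no DNA itself, is recruited by LIM-domain proteins such as Lhx2. Peak lists carry no expression values, so neither the identity of the sorted cells nor the loss of Lhx2 was checked here from RNA levels. Within 10 kb of genes used as cell markers, control Ldb1 regions numbered 2, 2, 1 and 10 for the mature neuron genes Omp, Cnga2, Gng13 and Adcy3. For other cell types, the immature neuron genes Gap43 and Gng8 had 3 and 2, the basal cell genes Krt5 and Trp63 had 1 and 0, and the sustentacular cell genes Cyp2g1 and Ermn had 0.

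Rtp1 and Rtp2 lie on chromosome 16 of build mm10, at 23429133 to 23433960 and 23925548 to 23930794, with 491.6 kb between them. They are short, at 4.83 and 5.25 kb. Reep1 lies on chromosome 6 at 71707429 to 71810710 and spans 103.3 kb. Within 100 kb, Rtp1 has the protein-coding neighbours St6gal1, Masp1 and Rtp4, Rtp2 has Sst and Bcl6, and Reep1 has Kdm3a, Mrpl35, Immt, Ptcd3 and Polr1a, so a peak at that distance may belong to a neighbour. Positions below are the distance of a peak or region centre from the transcription start, with negative values before the start. For Rtp1, whose start and strand were not available, they run from the lower-coordinate end of the gene.

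The promoters of Rtp2 and Reep1 are shown because Ldb1 or Rad21 peaks lay on them. Both are the 250 bases before the annotated start, taken from RefSeq's table of build GRCm38.p6, the build also called mm10, which matched 2 of the 3 genes. Rtp2 is given for chr16:23930795-23931044 on the minus strand, with capitals for the bases inside the peak of the first Lhx2 KO library. Reep1 is given for chr6:71707431-71707680 on the plus strand, with capitals for the bases inside a peak of the second control Ldb1 library. The Reep1 start used, 71707681, lies inside the gene body given above, which begins at 71707429. The printed Reep1 letters thus fall within that gene body.
Rtp2: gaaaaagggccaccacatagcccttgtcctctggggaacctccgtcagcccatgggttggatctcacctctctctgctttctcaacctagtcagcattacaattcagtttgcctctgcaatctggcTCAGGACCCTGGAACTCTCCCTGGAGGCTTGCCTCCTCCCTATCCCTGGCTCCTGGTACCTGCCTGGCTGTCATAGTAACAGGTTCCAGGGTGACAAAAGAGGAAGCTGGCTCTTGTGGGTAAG
Reep1: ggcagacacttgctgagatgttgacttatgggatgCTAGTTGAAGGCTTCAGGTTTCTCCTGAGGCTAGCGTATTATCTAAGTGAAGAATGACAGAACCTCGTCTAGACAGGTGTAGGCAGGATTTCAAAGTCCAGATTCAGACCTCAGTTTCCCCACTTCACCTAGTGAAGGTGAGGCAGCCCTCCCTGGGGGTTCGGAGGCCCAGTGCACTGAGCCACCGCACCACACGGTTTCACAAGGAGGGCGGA
The 300-base promoter windows of the table, 250 bases before to 50 after the start, were searched on both strands for 3 motifs. The LIM-homeodomain core TAATTA matched neither promoter and was present in 4.68% of 17492 protein-coding promoters. The Ebf motif also matched neither, against 0.943%. AGGNGGC, a part of the CTCF core, matched once in Rtp2 and not in Reep1, against 33.0% of promoters. No other motif overlapped that match, and a match is a description, not a bound site.

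All 3 genes had Ldb1 regions in control neurons. A region is a set of overlapping peaks (at least 1 base) found in at least 2 libraries of a group. Within 10 kb, Rtp1 had 4 regions, Rtp2 had 2 and Reep1 had 9, while 39.6% of protein-coding genes had at least 1 and the median gene had 0. Rtp1 had more than 94.2% of all genes, Rtp2 more than 81.7% and Reep1 more than 98.7%. Within 100 kb the counts were 7, 6 and 12, against a median of 2, and 75.3% of genes had at least 1. For genes as short as Rtp1 this number was rare, since 15 of the 7861 genes no longer than 10 kb (0.191%) had 4 or more regions within 10 kb. Among the 1392 genes of 80 to 130 kb, 26 (1.87%) had 9 or more, as Reep1 did. These 2 length classes were chosen after the counts were seen.

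**Figure D1:**
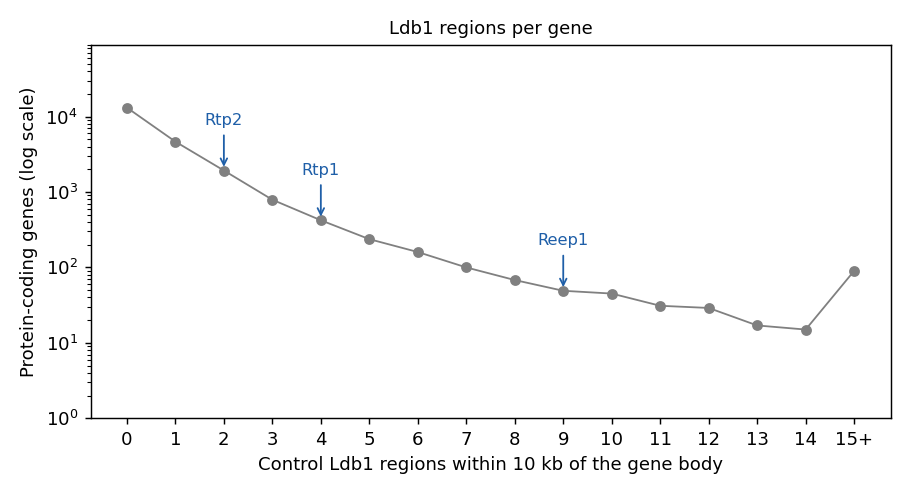
Number of protein-coding genes (log axis) by their number of control Ldb1 regions within 10 kb of the gene body, with genes of 15 or more regions in the last point. Arrows mark Rtp2 at 2, Rtp1 at 4 and Reep1 at 9 regions, to the right of the bulk of genes at 0 and 1.

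Within the control Ldb1 lists, Reep1 held the strongest peaks of the 3 genes. Scores are the authors' deposited values, whose scale differs between libraries, so each peak is given by its rank within its own list. The best Reep1 peak within 10 kb ranked 415 of 24877, 259 of 28879 and 519 of 16067 in the 3 control Ldb1 libraries. For Rtp1 the best ranks were 3860, 4500 and 4582, and for Rtp2 6723, 8289 and 7847. For the best peak alone, the order Reep1, Rtp1, Rtp2 held in each control library. Over 22789 control regions ordered by their mean percentile of score, the strongest region within 10 kb was among the top 2.48% for Reep1, 19.3% for Rtp1 and 32.6% for Rtp2. A gene with more regions has more chances of a high best one, and Reep1 had 9 against 4 and 2. The median of the mean percentile over these regions had another order, at 44.8 for Reep1, 74.9 for Rtp1 and 50.8 for Rtp2.

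Rtp1 carried a compact row of Ldb1 regions. Regions lay at -16.1, -11.1, -4.40, -0.273, 1.87 and 7.11 kb, and each held a peak in all 3 control libraries, as 65.2% of all control regions did. The region next to the lower-coordinate end of the gene (chr16:23428679-23429042) lay 91 bases outside it and ranked 5014, 4500 and 4696 in the control libraries. The region inside the gene (chr16:23430818-23431188) ranked 7089, 5753 and 5720. The strongest region of the row was the farthest out, at -16.1 kb (chr16:23412823-23413185), with ranks 3189, 3319 and 2831. At -11.1 kb the ranks were 7942, 9443 and 7847, and at 7.11 kb 12783, 15972 and 11579. All 3 control libraries thus gave the site at the lower-coordinate end of the row the best rank and the site at its other end the worst. One more region, at -70.8 kb within St6gal1, a sialyltransferase gene, was weak (ranks 20393 and 17470) and had no peak in the third library.

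This row lay between 2 CTCF sites. The nearest CTCF regions on both sides of Rtp1, at -25.7 and 8.87 kb, were 34.3 kb apart and had 6 control Ldb1 regions between them, or 17.5 per 100 kb. The median over 21349 protein-coding genes with a CTCF region on both sides was 0.447 per 100 kb, and 99.9% of genes had a lower density than Rtp1. Rtp2 had 3 Ldb1 regions in 54.5 kb between its CTCF regions (5.50 per 100 kb) and Reep1 had 9 in 189.6 kb (4.75 per 100 kb), above 96.1% and 94.4% of genes. The Reep1 interval was taken outside the gene body and itself holds CTCF regions at 63.8 and 96.6 kb. This measure was chosen after the positions were seen and has no test. The CTCF region at 8.87 kb, 3.88 kb beyond the higher-coordinate end of the gene, also held a Rad21 region (chr16:23437812-23438115), the strongest Rad21 site near Rtp1, with ranks of 1153 of 10487 and 557 of 28151. At -25.7 kb a Rad21 peak was listed in the second library only.

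Rtp2 had fewer and weaker Ldb1 regions than Rtp1. The strongest (chr16:23932431-23932801) lay 1.64 kb outside the gene at -1.82 kb, with ranks 6723, 8289 and 7847. The region at the start (chr16:23930792-23931166, centre -0.185 kb) ranked 10412 and 13357 in the first 2 control libraries and had no peak in the third. It spans the promoter letters printed above, where the second Rad21 library also had a peak (rank 8423 of 28151). A peak over the 300-base promoter window was not the rule: 10.2% and 10.9% of promoters had one in the first and second control Ldb1 libraries, and 3.16% in the third. One more region lay at -14.0 kb, with ranks 9696, 10434 and 12250. The other 3 were nearer to other genes. At -57.8 kb 1 lay at Bcl6, which encodes a transcriptional repressor, and overlapped the noncoding gene Gm31527 (ranks 10981, 11746 and 10002). Another lay within Gm31527 at -63.2 kb, and a weak one was found at -85.7 kb.

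No CTCF or Rad21 region lay within 10 kb of Rtp2, where 56.5% of genes had a CTCF region and 31.6% a Rad21 region. Single libraries did have peaks inside the gene: the second CTCF library at 1.08 kb (rank 17208 of 34210) and the second Rad21 library at 1.04 kb (rank 7396 of 28151), with none in the first library of either factor. Within 100 kb, where 84.0% and 68.4% of genes had at least 1 of each, there were 7 CTCF and 4 Rad21 regions, and all 4 Rad21 regions lay at CTCF. The share of all Rad21 regions that lie at CTCF is not given here, so this overlap is a description only. The strongest CTCF peak of the first library near Rtp2 was at -51.6 kb, inside Bcl6 (rank 824 of 27609), and Rad21 ranked 885 and 412 there. The nearest Rad21 region, at -23.1 kb, ranked 662 and 1368 and stood between Rtp2 and Bcl6.

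Reep1 held 9 Ldb1 regions, all within the gene body. A pair ranked highest in all 3 control libraries: one at 16.1 kb (chr6:71723576-71723936) ranked 667, 585 and 519, and one at 70.7 kb (chr6:71778157-71778532) ranked 415, 259 and 954. They were 565th and 609th of the 22789 control regions. Next came 2 regions at 33.4 and 29.8 kb, with ranks of 3189, 3232 and 3578 at the first and 5014, 5444 and 4271 at the second. The other 5, at 1.17, 7.46, 39.8, 45.2 and 77.7 kb, ranked between 6958 and 26002, and only that at 45.2 kb had a peak in all 3 control libraries. Strong and weak sites were thus mixed along the gene, with the start itself weak: a peak of the second control library alone covered the printed Reep1 promoter (rank 21631 of 28879). Outside the gene, a region in Kdm3a, a histone demethylase gene, at -75.9 kb ranked 850, 799 and 983, behind both of the pair in each control library and 879th of the control regions. The other 2 lay at -50.9 and -41.9 kb and were weak (17005th and 19488th of the control regions).

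Rad21 was found at Reep1 both with and without CTCF, again with no share over all Rad21 regions to set beside it. The 5 Rad21 regions within 100 kb included 3 at CTCF regions, at -34.3, -28.6 and 96.6 kb. The last, inside the gene near its far end, was the strongest, with Rad21 ranks of 317 of 10487 and 877 of 28151 and CTCF ranks of 3763 of 27609 and 1920 of 34210. The other 2 Rad21 regions had no CTCF region. One lay at 0.174 kb, just past the start, with ranks 8025 and 5812, where the second CTCF library had a weak peak (rank 30440 of 34210). The other lay at 16.7 kb (chr6:71724221-71724524), with ranks 5578 and 3875. Within 10 kb of the gene body, Reep1 had 3 Rad21 regions, more than 97.5% of all genes, and 2 CTCF regions, more than 70.5%. Those are genes of any length, with a median of 17.2 kb against 103.3 kb for Reep1. Genes of like length were not compared for Rad21 and CTCF.

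**Figure D2:**
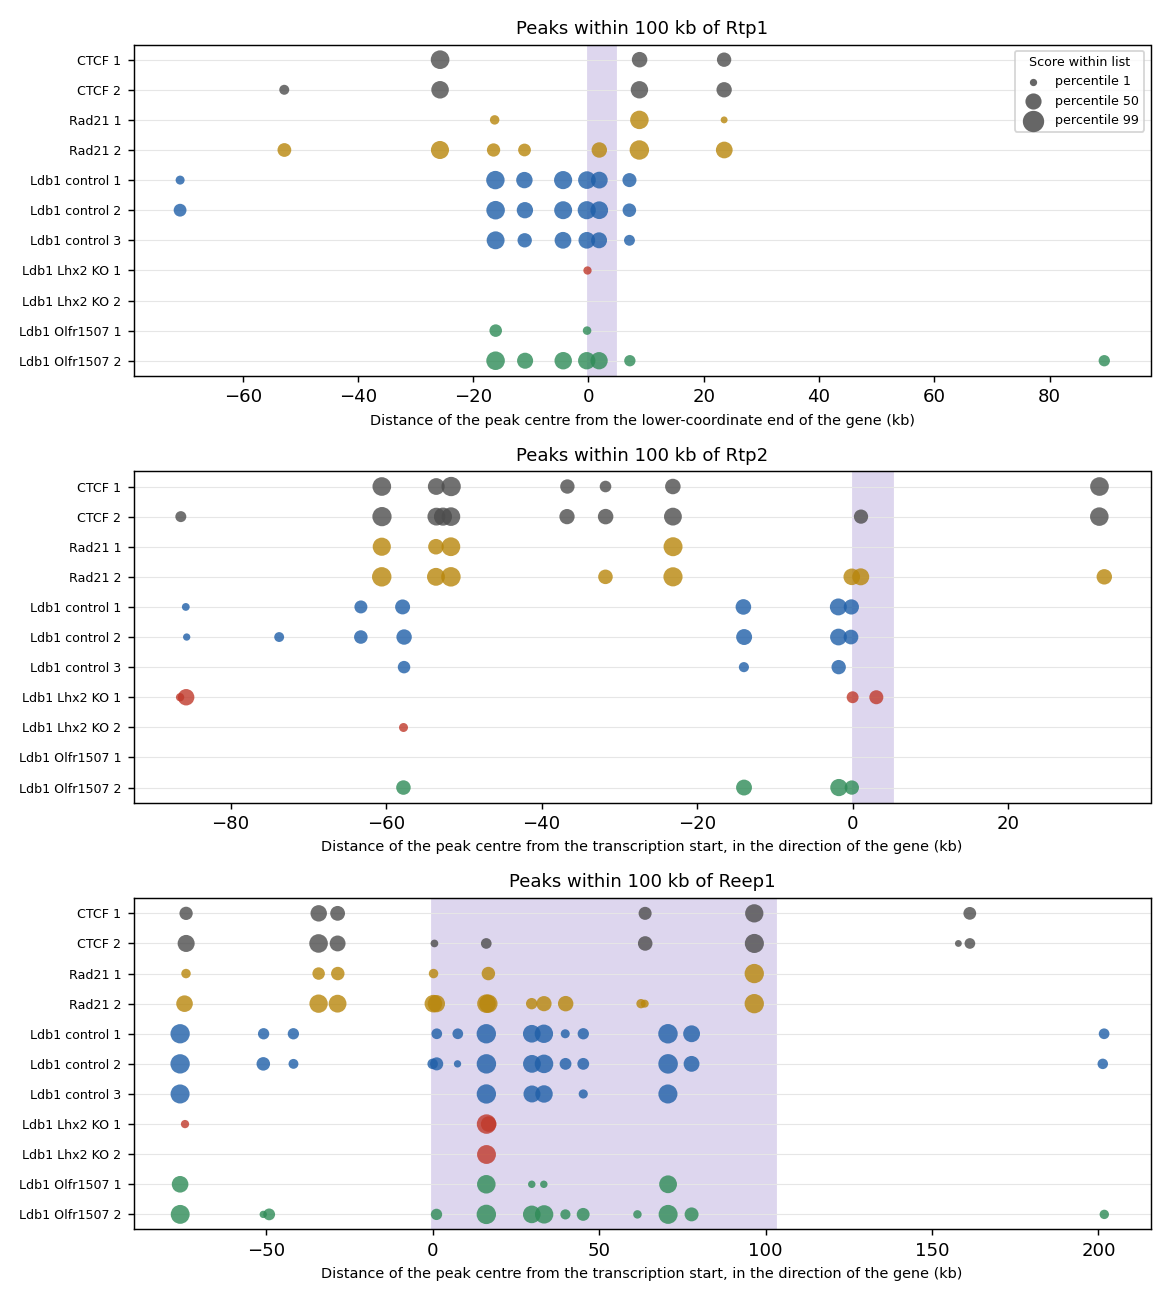
Peaks of all 11 libraries within 100 kb of each gene, by distance in kb from the transcription start (for Rtp1, from the lower-coordinate end), with the gene body shaded and dot size giving the percentile of the peak's score in its list. Ldb1 peaks of the control libraries line up at -16.1 to 7.11 kb around Rtp1 and along the body of Reep1, while the Lhx2 KO rows hold few dots.

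Ldb1 regions near the 3 genes lay mostly apart from CTCF and cohesin, as they did elsewhere. Of the 25 control Ldb1 regions within 100 kb, 0 overlapped a CTCF region and 1 a Rad21 region, against 4.52% and 3.82% of all control Ldb1 regions (6.19% for either). In single libraries, CTCF peaks lay on 0 and 1 of the 25, against 4.76% and 9.22%. The exception was the strongest Rtp1 region at -16.1 kb, whose Ldb1 peaks met the Rad21 peak of the first library (rank 8025), with the peak of the second next to it. Requiring both Rad21 libraries decided this count. A peak of the second Rad21 library lay on 8 of the 25 regions, where the background was 23.3%, and a peak of the first on 1, against 4.32%. Those 8 were 2 at Rtp1, 1 at Rtp2 and 5 at Reep1, the strong Reep1 region at 16.1 kb among them (Rad21 rank 3015 of 28151). Without the first Rad21 library, single peaks of the second were counted in place of regions. The Ldb1 regions with CTCF or Rad21 then numbered 8, and the Rad21 sites 28 in place of 12.

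Few control Ldb1 regions had an Ldb1 peak in neurons without Lhx2, near these genes as over all control regions. The first Lhx2 KO library had a peak on 4 of the 25 regions (background 12.7%) and the second on 2 (2.17%). At least 1 KO library marked 5 (13.2%) and both marked 1 (1.68%). By gene, Rtp1, Rtp2 and Reep1 each had 1 such region within 10 kb, where 10.1% of all genes had any. Only genes with a control region can have one, and 2189 of those 8634 genes did. Within 100 kb the 3 genes had 1, 3 and 1, where 30.9% of all genes had any (6724 of 16410 with a control region). Reep1 alone had one marked by both KO libraries. Within 10 kb 1.48% of all genes had one (322 of the 8634), and within 100 kb 6.08% (1324 of the 16410). With lists so short (4290 and 542 peaks), most control regions could not have been listed. Control lists limited to the 4290 top peaks reached 6, 5 and 6 of the 25 regions, where each reached 18.8% of all control regions. The first KO library reached 4 (12.7% of all). At 542 peaks, each control library reached 1 (2.37% to 2.38% of all) and the KO libraries 1 and 2 (2.15% and 2.17%). No test was made on these counts, which differ by a few peaks. By gene, the limited control lists of 4290 peaks reached 2, 1 and 1 regions of Rtp1, 0 of Rtp2 and 4, 4 and 5 of Reep1. The first KO library reached 1, 2 and 1.

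The region found in both KO libraries was the Reep1 site at 16.1 kb. Its KO peaks ranked 50 of 4290 and 37 of 542. Ranks from lists of different length show no change, so what can be said is that this site was near the top of every Ldb1 list: its ranks were 519 to 667 in control and 578 of 5095 and 505 of 21250 in Olfr1507 neurons. The Reep1 site of like control strength at 70.7 kb had no peak in either KO list, although it ranked 951 and 1371 in the Olfr1507 lists. The Kdm3a region at -75.9 kb, with ranks 1508 and 1603 in Olfr1507 neurons, likewise had none on it. Of the 2278 control regions in the top 10%, 36.0% were also listed in the first KO library, 14.7% in the second and 11.9% in both, so a strong region without a KO peak was common. A peak of the second Rad21 library and a weak one of the second CTCF library (rank 25464) lay on the region at 16.1 kb. No Rad21 or CTCF peak lay on those at 70.7 and -75.9 kb. That Rad21 library marked 50.3% of the same 2278 regions. It also marked the KO region at the Rtp2 start, but not those at -0.273 kb of Rtp1 and -57.8 and -85.7 kb of Rtp2. Its peaks at -11.1 and 1.87 kb of Rtp1 and 1.17, 29.8, 33.4 and 39.8 kb of Reep1 lay on regions without a KO peak. Whether Rad21 bears on the KO peaks was not tested.

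At Rtp1 the single KO peak lay at the lower-coordinate end of the gene (chr16:23428802-23429045, rank 3275 of 4290) and met the control region 91 bases from it. The control regions at -16.1 and -4.40 kb had no KO peak, with mean percentiles of 85.9 and 79.4 against 78.2 for the region that had one. That at -4.40 kb was behind it in the second control library (ranks 4994 and 4500). At Rtp2 the first KO library had a peak over the start (rank 2538), the part of the promoter printed in capitals, and the second had none there. The first KO library also listed the region at -85.7 kb (rank 1207), weak in control, and the second the region at Bcl6 (rank 378 of 542). A peak over the promoter window was found at 4.35% of promoters in the first KO library.

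Near the 3 genes, 4 KO peaks lay outside control Ldb1 regions, all of the first library. They were at 3.05 kb inside Rtp2 and at -86.5 kb from it, and at 16.8 and -74.5 kb of Reep1. The peak at 16.8 kb (chr6:71724320-71724563, rank 1522) lay on the Rad21 region without CTCF, beside the strong Ldb1 site at 16.1 kb. That at -74.5 kb overlapped a peak of the second Rad21 library and that at -86.5 kb a peak of the second CTCF library. Thus 3 of the 4 met a CTCF or Rad21 peak, where 44.5% of 1400 such peaks of that library did. The longer Olfr1507 list likewise had 4 peaks outside control regions, at 89.5 kb of Rtp1 and at -49.2, 61.5 and 201.8 kb of Reep1, and 0 of them met a CTCF or Rad21 peak (14.8% of 4509 such peaks did). Their ranks were weak, from 14207 to 18038 of 21250. Control libraries had single peaks outside regions at -73.7 kb of Rtp2 and at -0.0555, 201.3 and 201.7 kb of Reep1.

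**Figure D3:**
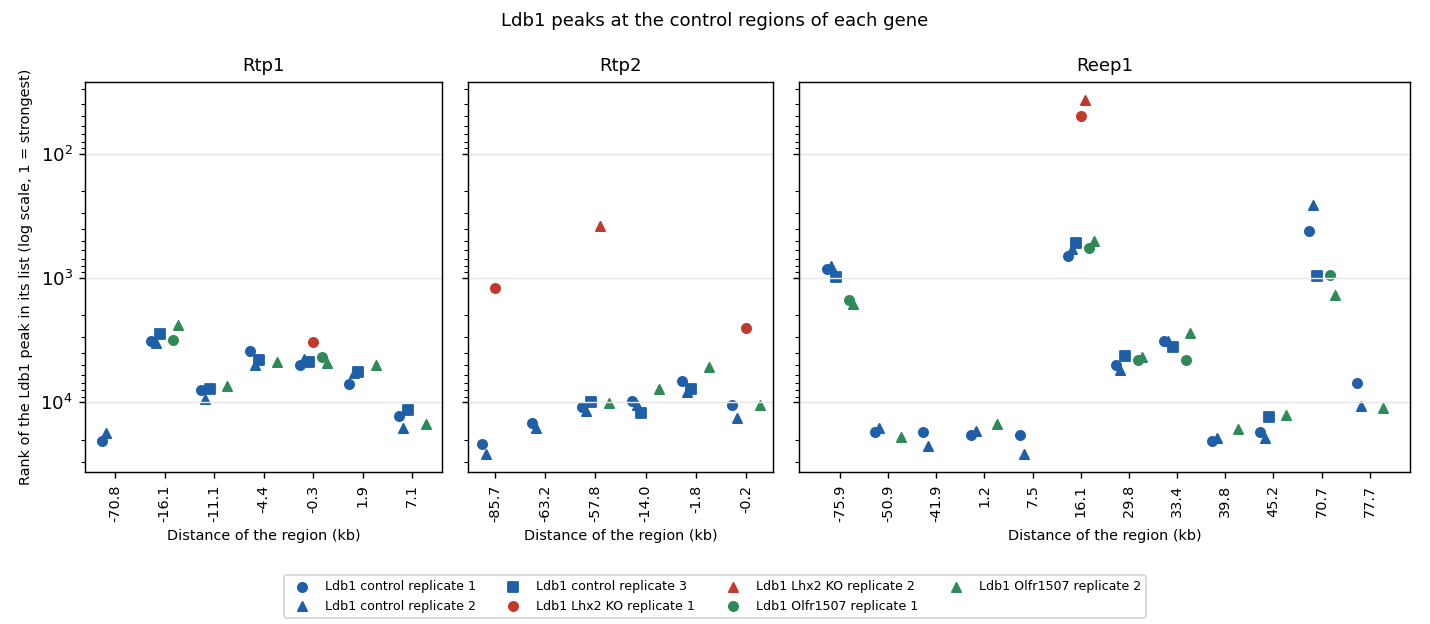
Rank of the Ldb1 peak (log axis, 1 is the strongest) at each of the 25 control regions, ordered by distance from the gene's start or, for Rtp1, its lower-coordinate end; each point is 1 library and a missing point means no peak. Ranks compare sites within a library only, as the lists differ in length; both Lhx2 KO libraries have a point at 1 region, Reep1 at 16.1 kb.

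In neurons that express Olfr1507 the control pattern was largely found in the longer list. Its 21250 peaks reached 20 of the 25 regions (background 73.5%) and the 5095 peaks of the other list reached 7 (background 21.8%), all of them among the 20. At least 1 list thus had 20 (background 73.7%) and both had 7 (21.6%). A region in both lists lay within 10 kb of Rtp1 and Reep1 but not of Rtp2. Of all genes, 11.5% had one (2505 of the 8634 with a control region). Within 100 kb 34.8% had one (7584 of the 16410 with a control region). At Rtp1, the longer list had the 6 regions of the row, with ranks from 2373 at -16.1 kb to 14852 at 7.11 kb. The shorter had those at -16.1 kb (rank 3144) and at the lower-coordinate end of the gene (rank 4298). At Rtp2, 4 regions were in the longer list and 0 in the shorter. At Reep1, 10 of 12 were in the longer list, and both lists had the regions at 16.1, 29.8, 33.4, 70.7 and -75.9 kb. These 5 were also the top 5 near Reep1 in each control library. Limited to 5095 peaks, the control lists reached 8, 7 and 8 of the 25 regions (background 22.3% for each). The Olfr1507 lists reached 7 and 9 (background 21.8% and 22.1%).

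The share of each Ldb1 list that lay near the 3 genes was compared over libraries. Within 100 kb, the control lists had 26, 28 and 15 peaks, or 10.5, 9.70 and 9.34 per 10000 listed peaks (mean 9.83 ± 0.569, SD, n = 3). The Lhx2 KO lists had 8 and 2 peaks, or 18.6 and 36.9 per 10000, and the Olfr1507 lists 7 and 24, or 13.7 and 11.3. Both groups lay above all 3 control libraries, by 17.9 and 2.69 per 10000 on average. The exact permutation test, two-sided, gave p = 0.1 for each (adjusted p = 0.1 over the 2 comparisons), the smallest p that 2 against 3 libraries allow, so neither comparison can pass 0.05. Both use the same control libraries. The lists differ in length, and the gap shrank when they were limited to the same number of top peaks. At 542 peaks the KO lists had 18.5 and 36.9 per 10000 and every control list 18.5, which is 1 peak against 1 or 2 (difference 9.23, exact permutation p = 0.4). At 5095 peaks the Olfr1507 and control means differed by 0.654 (exact permutation p = 1).

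**Figure D4:**
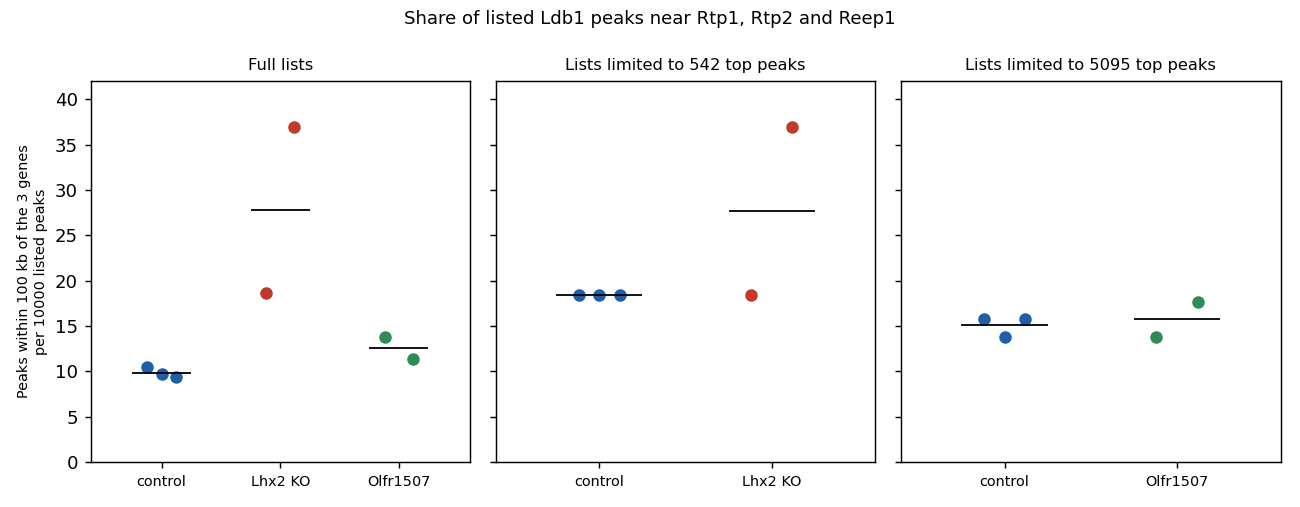
Ldb1 peaks within 100 kb of Rtp1, Rtp2 or Reep1 per 10000 listed peaks; each point is 1 library and the line is the group mean. With full lists both other groups lie above the 3 control libraries, whereas with lists of equal length the groups overlap.

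The relatives of these genes were near the background. Of 7 other members of the RTP and REEP families, 3 had a control Ldb1 region within 10 kb, with a median of 0, close to the 39.6% of all genes. Reep3, a long gene (87.8 kb) whose protein keeps ER membrane off mitotic chromosomes, had 6, of which 1 had a peak in a KO library. Rtp4, an interferon-induced relative that lies beyond Masp1 from Rtp1, had 1, and Reep5, a hairpin protein of ER tubules, had 1. Rtp3, Reep2, Reep4 and Reep6 had 0. Within 100 kb, where 75.3% of genes had a region, 6 of the 7 had at least 1, from 2 at Reep2 to 10 at Reep3, and Rtp3 had 0. Rtp4 and Rtp1 lie 86.3 kb apart and share part of their 100 kb windows.

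Another 3 lists cover the pathway, beside the same background of 39.6%. In the list of ER stress and receptor feedback, 9 of 12 genes had an Ldb1 region within 10 kb (median 1). Adcy3, whose enzyme makes cyclic AMP when odorants bind, had 10, and Eif2ak3, the ER stress kinase PERK, had 3. The ER chaperone genes Calr and Canx had 2 each. Atf5, the transcription factor whose translation follows that kinase in neurons that have begun to express a receptor, had 1 region, with a mean percentile of 98.0. That region was in both KO and both Olfr1507 lists, and Atf5 was named after its values were seen. In the list of receptor function cofactors 4 of 6 had a region (median 4), namely Gnal, which encodes the olfactory G protein alpha subunit (12 regions), Ric8b (8), Gnb1 (7) and Gng13 (1). In the list of ER shaping partners of REEP1 7 of 10 had one (median 1), led by the reticulon gene Rtn1 with 12, followed by Atl2 and Rtn3 with 2 each. Genes of the last 2 lists are long (medians of 84.5 and 52.4 kb, against 17.2 kb for all genes), which raises the number of regions a gene can hold.

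By the number of peaks within 10 kb in each of the 11 libraries (log2 of the count plus 1, Euclidean distance), the genes most like Rtp1 included Qk, Pfkfb2, Slc22a22 and Sspn, at distances of 0.691 to 0.827. Those most like Rtp2 were Chrac1, Kcna5, Rnft1, Tmem209 and Tst, all at 0.827. Those most like Reep1 were Sec14l5, Pag1, Ttc7b, Frem2 and Rab3b, at 1.20 to 1.32.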

How the data were processed

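Peaks of 11 ChIP-seq libraries were used; the 14 RNA and 3 input samples were not analysed here. Per the submitters' processing notes, the tools included cutadapt 1.9.1, Bowtie2 2.3.2, SAMtools 1.3.1, Picard, HOMER 4.7, with build mm10 and no roles stated. The peak threshold is not given in the sources used. Each list belongs to 1 library. Its score is the authors' deposited value per peak, on an unknown scale, and served only for ranks (equal scores share the best rank) and percentiles within a list. The lists give no reads, so depth is unknown. Only peaks on the main chromosomes entered (542 to 34210 a list). Gene bodies came from RefSeq's GRCm38.p6 table, without genes on scaffolds. Regions were built and counted with Python 3.11.15, pandas 2.3.3 and NumPy 2.4.6, and checked on simulated data. Percentages of all genes or regions are backgrounds, not tests. The test on the share of listed peaks is an exact permutation over libraries.

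The 3 genes, the gene lists and the rule for named items were chosen with earlier results of these data known. The rule covered all peaks and Ldb1 regions of the 3 genes (some CTCF and Rad21 peaks are given as counts only), all family relatives, up to 4 genes of each other list by number of regions, and the 5 genes nearest in peak counts, of which 1 is not reported here. Alternatives covered the overlap rule (reciprocal 50%, or centres within 200 bases), the top-scoring 50% of each list, equal list lengths, the window, and leaving out each library.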

Additional observations from a re-analysis of the deposited data

How the results depend on the processing

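Of 73 alternative values for 9 results, 55 kept their direction or stayed within 1.5 times, 18 moved further and 0 reversed. Counts, which make up most of the results, cannot reverse. The 2 differences in share were judged by direction alone. That for Olfr1507 was so counted as kept although it fell from 2.69 to 0.375 per 10000 in the top-scoring 50% of the lists. The 15 control Ldb1 regions within 10 kb stayed at 10 to 15. With the top-scoring 50% of each list, the regions within 100 kb fell from 25 to 15, the Rad21 regions from 12 to 6, those with CTCF or Rad21 from 1 to 0, those with a KO peak from 5 to 1 and those with an Olfr1507 peak from 20 to 13. A peak in all 3 control libraries was found at 15 of the 25. Reciprocal overlap of at least 50% left 0 regions with CTCF or Rad21. Requiring both libraries left 1 region for the KO and 7 for Olfr1507.

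Leaving out 1 library gave 15 to 25 Ldb1 regions (15 without control library 1 or 2), still with peaks in at least 2 libraries. For CTCF and Rad21 only 1 library then remained, and its single peaks were counted, 16 to 23 for CTCF and 13 to 28 for Rad21. These counts thus changed the rule as well as the library. On that basis, 1 to 8 regions had CTCF or Rad21 (2 without the first CTCF and 8 without the first Rad21 library). Leaving out 1 library gave 2 to 5 regions with a KO peak (3 without control library 1 or 2, and 2 without the first KO library). For Olfr1507 it gave 7 to 20 (7 without the second Olfr1507 library). The differences in share of listed peaks were 8.82 to 27.1 per 10000 for the KO, with 8.82 without the second KO library, and 1.47 to 3.91 for Olfr1507. With windows of 10 kb they were 9.12 and 2.51, and in the top-scoring 50% of the lists 13.8 and 0.375 (exact permutation p = 0.9 for the last).

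With the replicate number as a block, the differences were 17.7 and 2.44 per 10000 (exact sign-flip p = 0.5, the smallest for 2 pairs). No label says that a number marks a shared animal or day, and 1 value per library and 2 pairs give no check of the pairing.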
